A study of Equus caballus with 14 samples.

Results

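IL4, IL5 and IL9 encode interleukin-4, interleukin-5 and interleukin-9, the cytokines described here in lymph nodes of horses with recurrent airway obstruction (RAO, also called heaves). Their probes were found by the horse RefSeq transcript that the array design lists for each spot, without regard to signal. They are 3 of 599 genes that could be named on the array and took up 23 of its 43603 probes, namely 17 for IL4, 5 for IL5 and 1 for IL9. RNA came from the mediastinal lymph nodes, which drain the lungs, of 7 RAO-affected and 7 healthy control horses of mixed breed, each on its own 1-colour Agilent array. Both groups had been stabled and fed dusty hay before sampling. The RAO-affected horses, chosen for a history of airway obstruction under those conditions, were on average older than the control horses, so disease and age cannot be told apart. Each sample held cortex and medulla with all their cell types.

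T-helper 2 cells are the CD4+ T cells best known for type 2 responses to parasites and allergens. IL-4 drives their differentiation and immunoglobulin class switching to IgE in B cells, IL-5 supports the growth and survival of eosinophils, and IL-9 acts on mast cells and airway mucus. IL-4 signals through the receptor chain encoded by IL4R, and IL4 and IL5 belong to one cytokine gene cluster. In the gene table of the horse TB-T2T assembly, IL13 and RAD50 are the genes between them. No probe could be named here for either of those neighbours.

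All values are log2 signals after quantile normalization, where 1 unit is a 2-fold difference. Feature Extraction marks a spot as well above background by its own test against the local background. The limma test took probes with that mark on 4 or more arrays, which left 38674 probes, among them all 17 of IL4, all 5 of IL5 and not that of IL9. A probe can pass this filter through 1 group alone, and most IL4 probes passed mainly through the control horses. Between 32696 and 39947 probes per array were well above background. The 14 arrays were on 4 slides, and no slide held 1 group only. Slide 1, with control horses 3 and 5 and RAO-affected horse 4, stood apart, with median background intensities of 45.5 to 46 against 55.5 to 97 elsewhere and correlations of 0.923 to 0.959 with arrays of other slides, against 0.959 to 0.990 among those. Over all tested probes the median difference between the groups was -0.03. Limma gave 0 probes an adjusted p of at most 0.05 (0%), with 2177 (5.63%) at an unadjusted p under 0.05.

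IL4 signal was lower in RAO-affected than in control horses. On A_69_P003025, the IL4 probe with the highest mean signal, the control horses measured 6.33 (horse 1), 7.47 (horse 3), 5.42 (horse 5), 8.03 (horse 7), 6.68 (horse 9), 7.68 (horse 11) and 6.48 (horse 13). The RAO-affected horses measured 5.32 (horse 2), 5.60 (horse 4), 6.52 (horse 6), 6.41 (horse 8), 6.20 (horse 10), 5.54 (horse 12) and 5.61 (horse 14). The groups overlapped. Control horses 3, 7, 9 and 11 lay above every RAO-affected horse, control horse 5 lay below all but horse 2, and the control mean lay above all 7 RAO-affected horses. The means were 6.87 ± 0.91 (SD, n = 7) and 5.89 ± 0.48 (SD, n = 7), a difference of -0.98 (SE 0.37, 95% interval -1.78 to -0.19) or 1.98-fold. With normexp background correction the difference was -0.50. An exact two-sided permutation test returned p = 0.0297, and limma's adjusted p was 0.873. For this single value, rearranged group labels thus seldom gave a difference as large, and it did not pass adjustment over all probes. The study had already listed IL4 among its most down-regulated genes on these arrays, at a larger fold than on this probe. The permutation p is therefore not that of a gene fixed in advance. In homogenates of the nodes, the study detected IL-4 protein in neither group. In bulk lymph node RNA, fewer IL4-expressing cells and less IL4 RNA per cell cannot be told apart.

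**Figure D1:**
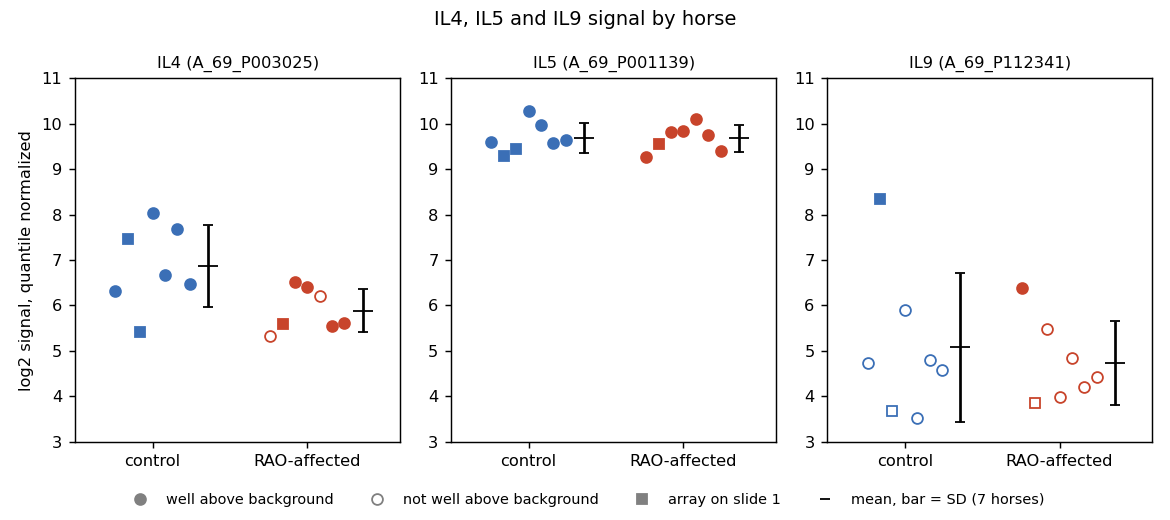
Log2 signal of the brightest IL4 and IL5 probe, and of the only probe of IL9, in each horse (horses in numerical order from left to right, black dash and bar mean and SD of 7 horses, open symbols not well above background, squares slide 1). For IL4, 4 control horses lie above all RAO-affected horses, the IL5 groups cover nearly the same range, and the IL9 probe is well above background in 1 horse of each group.

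IL4 was a dim signal in both groups. Before scaling between arrays, the spot intensity of A_69_P003025 was 46.9 to 223 (median 92.6) in control and 48.2 to 85.0 (median 58.9) in RAO-affected horses. Feature Extraction's own error on these intensities was 10.1 to 17.8% (median 13.5%) in control and 11.6 to 34.0% (median 19.4%) in RAO-affected horses. The spot was well above background in all 7 control horses and in 5 of 7 RAO-affected horses, the exceptions being horses 2 and 10. Raising readings under the lowest detected signal of their array to that signal changed horse 10 alone on this probe, from 6.20 to 6.59, and gave a difference of -0.93.

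The IL4 difference was negative on each of the 4 slides. RAO-affected horse 4 lay 0.85 below the mean of the 2 control horses beside it on slide 1 (difference -0.85). The differences were -1.26 on slide 2, -0.38 on slide 3 and -1.50 on slide 4, each from 3 or 4 horses and without a test. With slide as a fixed block the difference was -1.07 (SE 0.40), and an exact permutation of the labels within slides gave p = 0.0370 over 324 arrangements (two-sided). The adjusted p in the blocked limma fit was 0.382.

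The other 16 IL4 probes read the same transcript and are not replicates of the condition, but they show how far the result depends on the oligonucleotide. Each of the 17 probes gave a lower mean in the RAO-affected group, where 56.2% of all tested probes were lower. Differences ran from -1.76 to -0.59 with a median of -1.24, which corresponds to 1.50- to 3.39-fold. At limits of at least 2-fold and an unadjusted p under 0.05, 13 of the 17 were down-regulated in limma, against 0.372% of all tested probes. At the unadjusted p alone 15 of 17 passed. At an adjusted p of at most 0.05 none of the 17 did, with 0.873 as the lowest value in limma. The count of 13 rests on how dim readings were treated, since it was 0 of 17 with normexp background correction and 0 of 17 when readings under the detection limit were raised to it. Of the 13, 10 were well above background on fewer than 7 arrays. The 17 probes share transcript, horses and arrays, and most passed the filter mainly through control horses. The share over all probes therefore does not test the count.

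**Figure D2:**
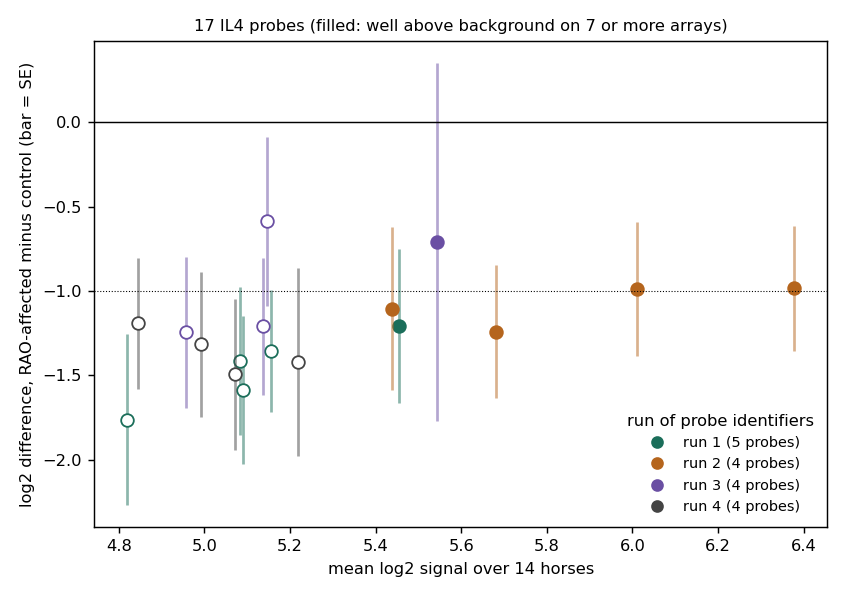
Log2 difference (RAO-affected minus control) (vertical axis, bars SE) for the 17 IL4 probes against their mean log2 signal over 14 horses (horizontal axis), coloured by run of probe identifiers, with the dotted line at a 2-fold decrease. All 17 points lie below 0, the 6 filled probes (7 or more arrays well above background) lie between -1.24 and -0.71, and the probe with the longest bar is A_69_P004812.

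The IL4 probes fall into 4 runs of consecutive identifiers. The 5 probes A_69_P001531 to A_69_P001535 gave the lowest differences, -1.76 to -1.21, and all 5 passed the limits above in the main setting, although 4 to 6 control horses and 1 RAO-affected horse were well above background. In A_69_P001533 the control mean was 5.88 ± 0.99 (SD, n = 7) and the RAO-affected mean 4.30 ± 0.73 (SD, n = 7). Here 6 of 7 control horses lay above every RAO-affected horse (difference -1.58, exact two-sided permutation p = 0.00291). That p was the lowest among the 17 IL4 probes, whose exact permutation p ran up to 0.633. The probe was well above background in 5 control horses and 1 RAO-affected horse, so its p adds no separate support. The 4 probes A_69_P006337 to A_69_P006340 gave -1.49 to -1.19, also all past the limits. With normexp, or with readings raised to the detection limit, none of the probes of either run passed. A_69_P006340 had no value for RAO-affected horse 8, whose spot was left out as uneven or an outlier, so its difference of -1.42 rests on 6 RAO-affected horses.

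The run A_69_P003022 to A_69_P003025 held the 3 probes with the highest mean signals, and its differences of -1.24 to -0.98 lay close to the 2-fold limit, which 2 of the 4 passed. The run A_69_P004812 to A_69_P004815 was the least uniform, with differences of -1.24 and -1.21, which passed the limits, and of -0.71 and -0.59, which did not. Its probe A_69_P004813 passed the background test in 2 control and 2 RAO-affected horses. The difference of -0.59 on that probe had an SE of 0.50 and an exact two-sided permutation p of 0.274. RAO-affected horse 14 read 6.45 there, against at most 5.61 on its other IL4 probes. Likewise, RAO-affected horse 12 read 7.13 on A_69_P003022, against at most 6.13 on its other IL4 probes.

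A single spot set the value of A_69_P004812. RAO-affected horse 6 read 11.53 there, while the other 6 RAO-affected horses read 3.16 to 5.08. In the same horse the other 16 IL4 probes read 3.89 to 6.80, and the spot's intensity before scaling was 2344 against 12.9 to 96.3 for theirs. With this horse the difference was -0.71 (SE 1.06, exact two-sided permutation p = 0.633). Without it the difference was -1.77 (SE 0.42), a description only, since the horse was left out for its reading on this probe. In the fit without this horse the number of down-regulated IL4 probes rose from 13 to 15. Leaving out RAO-affected horse 8 or control horse 1, 5 or 13 also gave 15, so the rise is not particular to this spot. Feature Extraction did not flag the spot.

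The size of the IL4 difference varied with signal level. The 6 probes well above background on 7 or more arrays differed by -1.24 to -0.71 (median -1.05), and 3 of the 6 were down-regulated by the limits above. The 11 probes detected on fewer arrays differed by -1.76 to -0.59 (median -1.35), and 10 of the 11 passed in the main setting, against none with normexp or with readings raised to the detection limit. Across the 17 probes Spearman's rho between the difference and the mean signal was 0.57, and 0.54 over the 16 probes without A_69_P004812. The probes share horses, transcript and arrays, so these correlations are descriptions. Mean signal and detection count both include the RAO-affected arrays. Lower readings there thus enlarge the difference and also move a probe toward the dim set, so the contrast is partly built in.

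**Figure D3:**
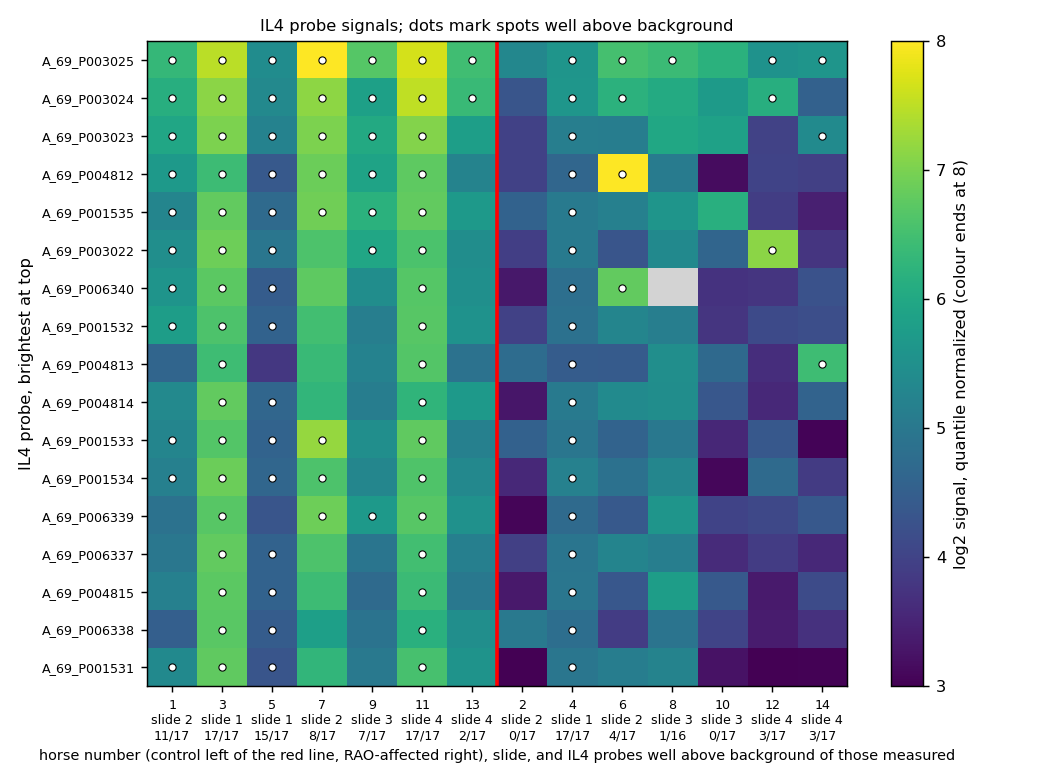
Log2 signal of the 17 IL4 probes (rows, brightest at the top) in the 14 horses (columns, control left and RAO-affected right of the red line), with white dots on spots well above background and grey for the spot left out. Control horses 3 and 11 and RAO-affected horse 4 have dots on all 17 probes, RAO-affected horses 2 and 10 have none, and the single bright tile in horse 6 is A_69_P004812 at 11.53, past the end of the colour scale.

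Detection of the IL4 probes varied with both group and slide. Of the 17 probes, control horses had 11 (horse 1), 17 (horse 3), 15 (horse 5), 8 (horse 7), 7 (horse 9), 17 (horse 11) and 2 (horse 13) well above background. RAO-affected horses had 0 (horse 2), 17 (horse 4), 4 (horse 6), 1 of 16 (horse 8), 0 (horse 10), 3 (horse 12) and 3 (horse 14). RAO-affected horse 4, on slide 1 with its low background, was thus the only horse of its group with more than 4, and 10 of the 17 probes were well above background in that horse and in no other RAO-affected horse. On slide 1 the control horses had 32 of 34 readings well above background. On slides 2 to 4 they had 45 of 85, and RAO-affected horses had 11 of 101. The differences of the dim probes therefore include many readings that Feature Extraction did not separate from background.

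Detection and level did not give the horses the same order. Over the 17 probes the median log2 signal was 4.57 in control horse 5 and 4.96 in RAO-affected horse 4, although 15 and 17 of their probes were detected. In control horse 7 the median was 6.61 with 8 probes detected, and the lowest signal that counted as well above background on that array was 6.38. On the array of RAO-affected horse 10 that limit was 6.59 and on slide 1 it was 3.36 to 3.75. The lowest medians were those of RAO-affected horses 2, 12, 10 and 14, at 3.97, 3.98, 4.03 and 4.14. On slides 2 to 4 the medians of the control horses were 5.35 to 6.68, a range that only horse 8, at 5.41, reached among the RAO-affected horses.

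The IL4 probes ranked the horses in a similar way. Pairwise correlations over the horses had a median of 0.80 (0.11 to 0.97, 136 pairs), and 0.68 after the group means were removed. Among the 11 dim probes the median was 0.86, and among the 6 brighter ones it was 0.61. The brighter ones include A_69_P004812 and A_69_P003022, which correlated least with A_69_P003025 (0.52 and 0.61), and the other probes did so at 0.70 to 0.91. The probes share array, scaling and background, and these correlations carry no test.

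IL5 signal did not differ detectably between the groups. On A_69_P001139 the control horses measured 9.30 to 10.28 with a median of 9.61, and the RAO-affected horses 9.27 to 10.12 with a median of 9.76. Control horse 7 was the highest of all and RAO-affected horse 2 the lowest, and the remaining horses of both groups were interleaved. The means were 9.69 ± 0.33 (SD, n = 7) and 9.68 ± 0.29 (SD, n = 7). The difference was -0.01 (SE 0.17, exact two-sided permutation p = 0.959), and limma's adjusted p was 0.997. The 95% interval of -0.37 to 0.35 covers a decrease of up to 1.29-fold. With slide as a fixed block the difference was -0.09, and the slides gave 0.17, -0.40, 0.01 and -0.02.

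All 5 IL5 probes were well above background in all 14 horses and agreed closely. Their differences were -0.04 to 0.00, 0 of the 5 passed the limits above, and pairwise correlations over the horses were 0.98 to 0.99. Probe A_69_P001136 was spotted 5 times per array, and these spots had an SD of 0.02 to 0.08 within an array. The 5 probes spanned 0.08 to 0.20 within an array, while the SD between horses of a group was 0.31. Spot and probe error within an array were therefore smaller than the spread between horses. With 1 array per horse, that spread also holds differences between arrays, which spots within an array do not measure. Of 1869 probes with a mean signal within 0.25 of IL5, 13.5% had a smaller spread within groups. For IL4, with an SD of 0.73, the share was 62.6% of 1507 probes.

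IL9 was close to the detection limit. Its probe, A_69_P112341, was well above background in control horse 3 (8.35) and RAO-affected horse 2 (6.39) and in no other horse. The remaining control horses read 3.52 to 5.91 and the remaining RAO-affected horses 3.85 to 5.49, values that were not separated from background. The means were 5.08 ± 1.64 (SD, n = 7) and 4.74 ± 0.92 (SD, n = 7), a difference of -0.34 with an exact two-sided permutation p of 0.674. Without control horse 3 the difference turned to 0.20, and within slides it was -2.17, 0.62, 0.89 and -0.38. A difference in IL9 was not detectable at this signal.

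The group difference of IL4 was set against that of IL5 and of IL9. IL4 minus IL5, taken within each array, was -2.82 ± 0.83 (SD, n = 7) in control and -3.79 ± 0.32 (SD, n = 7) in RAO-affected horses. The change of -0.98 had an exact two-sided permutation p of 0.0128, or 0.0256 after Benjamini-Hochberg adjustment over the 2 pairs compared. The adjusted value was 0.0967 with 75th percentile scaling and 0.0741 with slide as a fixed block, and without RAO-affected horse 2, 4, 10 or 12 it was 0.0559, 0.0559, 0.05245 or 0.0653 (exact permutation). With normexp background correction the change in IL4 minus IL5 was -0.47. Since IL5 itself differed by -0.01, this comparison largely repeats the IL4 difference and is not independent of it. IL4 minus IL9 changed by -0.64, with an exact permutation p of 0.349 before and after adjustment over the 2 pairs. Since 12 of the 14 IL9 readings were not well above background, this second comparison carries little information.

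**Figure D4:**
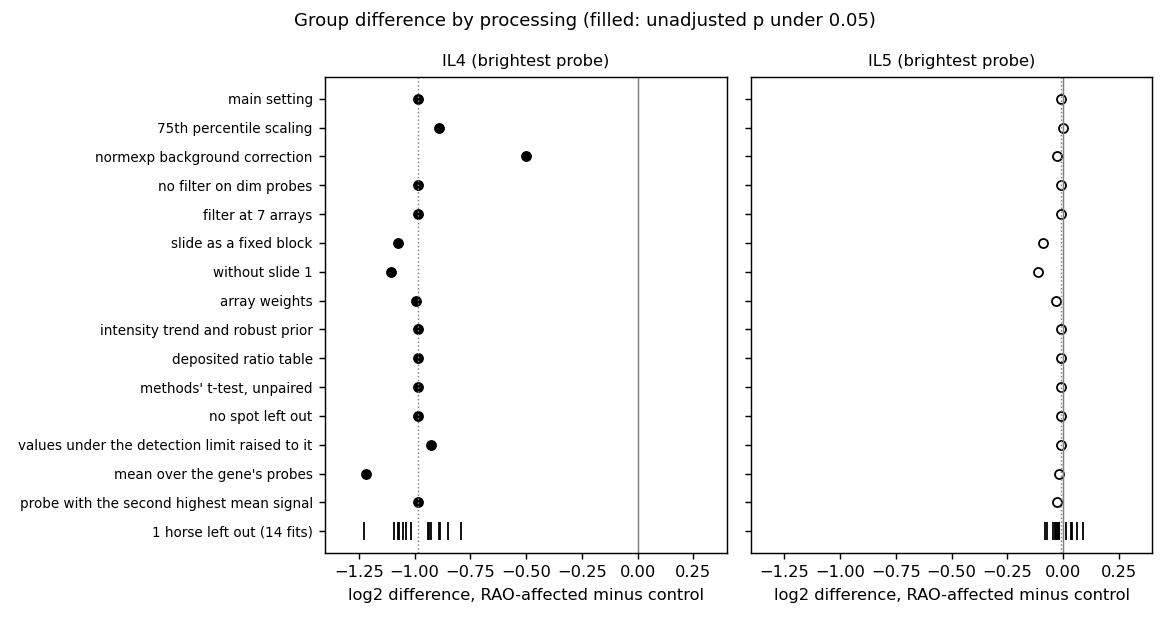
Log2 difference (RAO-affected minus control) for IL4 (left) and IL5 (right) under each processing setting (rows), filled where the unadjusted p was under 0.05, with ticks for the 14 fits that each left out 1 horse and the dotted line at the main value. IL4 stays between -1.23 and -0.50 and IL5 between -0.11 and 0.09.

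IL4R, the receptor chain through which IL-4 signals, had a small difference that did not pass adjustment. Control horses measured 15.02 to 15.94 (median 15.29) and RAO-affected horses 14.26 to 15.31 (median 15.05). The groups overlapped, with 3 control horses above every RAO-affected horse and 3 RAO-affected horses below every control horse. The difference was -0.40 (SE 0.18, exact two-sided permutation p = 0.0460, adjusted p 0.877 in limma). The probe was saturated on 1 array, which can compress the value there. Within slides the differences were -0.52, -0.39, -0.02 and -0.40. The receptor chains specific to IL-5 and IL-9 were not located here.

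Of 68 other type 2 pathway genes listed, 10 were located and tested. At an unadjusted p under 0.05 in limma, 0 were higher and 1, IL4R, was lower, and 0 reached 2-fold as well. A count of 1 in 10 is near the share of 5.63% over all tested probes. Their median difference was -0.18, against -0.03 over all probes. Among the cytokines, CSF2, which encodes GM-CSF and belongs to the wider IL4 and IL5 gene cluster, differed by -0.39 (SE 0.73). IL2, the T cell growth factor, differed by 0.35 (SE 0.32) and IL10, an anti-inflammatory cytokine, by -0.08 (SE 0.12). IL2RA, the high-affinity IL-2 receptor chain, differed by -0.28 (SE 0.47). JAK2, a kinase of cytokine receptors, and SOCS3, an inhibitor of such signalling, both differed by 0.04 (SE 0.27 and 0.16).

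The last 3 located genes lie downstream of type 2 cytokines. FCER2, the low-affinity IgE receptor CD23 that IL-4 induces on B cells, measured 12.09 ± 1.03 (SD, n = 7) in control and 11.35 ± 0.84 (SD, n = 7) in RAO-affected horses. Its difference of -0.74 (SE 0.47) had an exact two-sided permutation p of 0.166, and the slides gave -2.73, -1.25, 0.23 and 0.57. The eosinophil chemoattractant CCL11 differed by -0.57 (SE 0.76). CLCA1, a secreted protein of mucus-producing epithelium, differed by 1.93 (SE 1.09, exact two-sided permutation p = 0.121). The regulators on the list, among them the Th2 transcription factor GATA3, were not located.

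**Figure D5:**
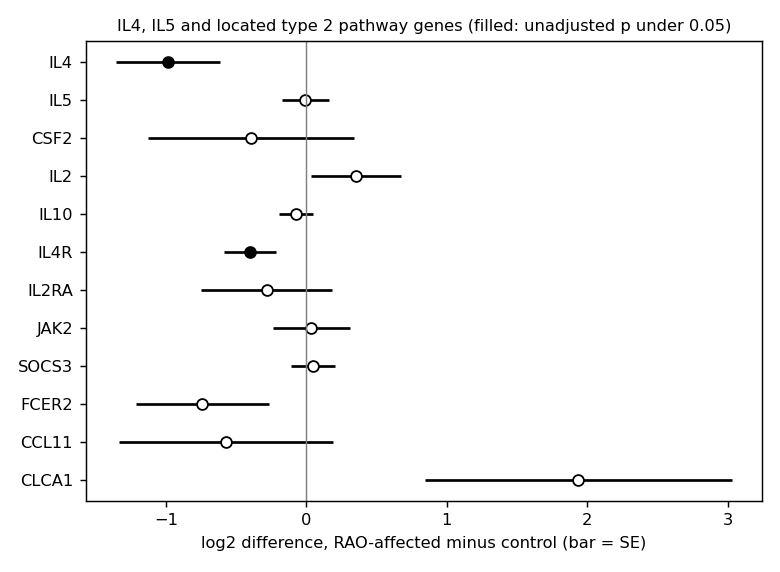
Log2 difference (RAO-affected minus control) (horizontal axis, bars SE of the limma fit) for IL4, IL5 and the 10 located pathway genes (rows), filled where the unadjusted p was under 0.05. IL4 at -0.98 and IL4R at -0.40 are filled, and CLCA1 at 1.93 has the longest bar.

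Markers of the cells in the node were measured beside IL4. Of 66 markers listed, 11 were located, and all were well above background in all 14 horses. The T cell marker CD2 measured 13.24 to 14.55 in control and 12.999 to 15.23 in RAO-affected horses, as in a lymphoid tissue. The value of 15.23 was that of RAO-affected horse 4, and the others of its group read 12.999 to 13.57. CD2 differed by -0.43 (SE 0.32) and the T cell costimulatory receptor CD28 by -0.41 (SE 0.25), neither at an unadjusted p under 0.05 in limma. The mean log2 signal of both ranged from 10.502 to 11.69 in control (median 11.26) and from 10.17 to 11.95 in RAO-affected horses (median 10.60). The macrophage markers CD163 and CD14 were higher in RAO-affected horses, by 2.61 (SE 0.47) and 1.11 (SE 0.33, saturated on 1 array), as was SELP of endothelium and platelets, by 1.64 (SE 0.52). These 3 of 11 met both limits given for the IL4 probes, which 1.1% of all tested probes met in the direction of higher signal. The mean over the 11 markers ranged from 11.26 to 12.32 in control and from 11.97 to 12.88 in RAO-affected horses. FCER1A and TPSB2, of mast cells and basophils, which can also make IL-4, differed by 1.04 (SE 0.49) and 0.77 (SE 0.75). CD68 of macrophages differed by 0.04, GNLY of natural killer cells by 0.05, SFTPA1 of lung epithelium by 0.54 and PECAM1 of endothelium by 0.45, none at an unadjusted p under 0.05 in limma. No marker of B cells, plasma cells, eosinophils or neutrophils could be named here, which does not mean that the array lacked them. Beside IL4, the study itself listed VPREB1, of B cells, and PRG2 and PRG3, of eosinophils, among its most down-regulated genes. Its histology also scored fewer eosinophils in the nodes of RAO-affected horses. The part of cell composition in the IL4 difference was not tested.

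Among 526 other named genes that passed the filter, the one whose signal over the 14 horses was most like that of IL4 was KLRF1, which encodes a receptor of natural killer cells. Pearson's r was 0.83 (permutation p = 0.000480) and Spearman's rho 0.82 (permutation p = 0.000580), or 0.126 and 0.305 after Benjamini-Hochberg adjustment over these genes. Within slides r was 0.87, and without the 2 horses farthest from the IL4 median it was 0.76. KLRF1 itself differed by -0.40 between the groups, at an unadjusted p of 0.123 in limma. SPOP (r = 0.72, rho = 0.64) and CD40 (r = 0.61, rho = 0.67) followed, with permutation p of 0.00323 and 0.0157 for SPOP and of 0.0212 and 0.0115 for CD40. Without the 2 horses farthest from the median, r was 0.53 for SPOP and 0.45 for CD40. After the group means were removed, r was 0.79 for KLRF1, 0.70 for SPOP and 0.43 for CD40, and CD40 itself differed by -0.43 between the groups. For IL5 the closest genes were DROSHA (r = 0.76, rho = 0.67), MSTN (r = 0.68, rho = 0.71) and GPR137C (r = 0.68, rho = 0.59). Their permutation p were 0.00174 and 0.0102 for DROSHA, 0.00667 and 0.00593 for MSTN, and 0.00776 and 0.0284 for GPR137C. Without the 2 farthest horses r was 0.57, 0.59 and 0.43. Adjusted over the same genes, the p of these 6 relations was at least 0.126.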

How the data were processed

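The authors deposited 1-colour scanner output for each of the 14 arrays. Its intensity per spot was background-subtracted by Feature Extraction (10.5.1.1 per the file headers, 9.1 per the submitters' processing notes) and not scaled between arrays. The deposited files also mark spots as well above background, saturated, uneven or outlying. The deposited value table holds a ratio of the authors' quantile-normalized value (GeneSpring) to each probe's median, and served as an alternative. Its column medians were 0.973 to 1.02. With 14 arrays, precision is limited by their number.

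Control spots (1417 per array) and 19 to 177 uneven or outlying spots per array were left out. Spots of a probe were averaged and log2 values quantile normalized. Probes well above background on at least 4 arrays were tested unpaired with limma (lmFit, eBayes, two-sided, Benjamini-Hochberg over 38674 probes). Single values also had an exact permutation test over 3432 arrangements, whose smallest p is 0.000583. Correlations over horses used 100000 permutations. A gene was represented by its probe with the highest mean signal. Of the probes, 1231 were named through RefSeq transcripts of the horse TB-T2T assembly and 20 through the study's primer list, 599 genes in all. Others were not analysed here. The text names the members, the located genes of type 2 pathway and marker lists, and the 3 genes most like IL4 and IL5.

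The members and the lists were chosen with earlier results of these data known. Each array held RNA of 1 horse. The methods name a paired test, but no pairs are given in the sources used here. Alternatives were 75th percentile scaling, normexp (offset 50, on median spot intensities because mean intensities were not among the columns used), other filters, slide as a block, omission of slide 1, array weights, a trended robust prior, the ratio table, the methods' t-test run unpaired, no spot left out, values raised to the detection limit, other probe choices and each horse left out. The fit was tested on simulated data. Tools were R 4.3.3, limma 3.58.1, data.table (version 1.17.8), pandas and matplotlib.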

Additional observations from a re-analysis of the deposited data

Results flagged for a closer look

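Single horses far from their group were sought in 88 groups of horses (44 probes in each of the control and RAO-affected groups) by Dixon's criterion, which divides an end value's distance to its neighbour by the range. Chance alone marks about 1 in 20 such groups, and 4 of 88 were marked. For the IL4 probe A_69_P004812 the ratio of RAO-affected horse 6 was 0.771, with 11.53 against 3.16 to 5.08 in the others. For CD2 it was 0.742 in RAO-affected horse 4 (15.23 against 12.999 to 13.57), for FCER1A 0.618 in control horse 7 (14.09 against 10.87 to 12.10), and for CD14 0.612 in control horse 5 (15.80 against 13.45 to 14.36).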

How the results depend on the processing

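The IL4 difference kept its direction and an unadjusted p under 0.05 in all 28 alternative settings, from -1.23 to -0.50, with normexp background correction at the small end (-0.50). Leaving out 1 horse at a time gave -1.23 to -0.79 for IL4 and -0.081 to 0.091 for IL5, which was positive without RAO-affected horse 2 (0.061), 4 (0.013) or 14 (0.037) and without control horse 7 (0.091) or 9 (0.039). IL4 minus IL5 kept its direction and an unadjusted exact permutation p under 0.05 in all 21 alternatives (-1.20 to -0.47). Adjusted over the 2 pairs it stayed under 0.05 in 15 of 21.

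The count of IL4 probes past 2-fold and an unadjusted p under 0.05 depended on how dim readings were treated. It was 0 of 17 with normexp, which shrinks dim differences, where 0.0827% of all probes were lower by those limits. It was also 0 of 17 when readings under the detection limit were raised to it (0.199% of all probes), with 16 of 17 still lower. With a filter at 7 arrays only 6 probes remained, all 6 lower and 3 past the limits, and with a filter at all 14 arrays no IL4 probe remained, so no IL4 value was obtained. Blocking by slide gave 14, and leaving out 1 horse 11 to 15, with 17 lower each time.

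For IL9, leaving out 1 horse gave -0.62 to 0.20, with 0.20 without control horse 3, and omitting slide 1 gave 0.18. IL4 minus IL9 was -1.08 to -0.27 with 1 horse left out. The value of -1.08 was that without control horse 3 (exact permutation p = 0.0373), whose IL9 reading was the highest. No other single omission gave a p under 0.05. Without slide 1, which held that horse, IL4 minus IL9 was -1.28 (exact permutation p = 0.0433). All these values were taken against IL9 readings that were mostly not separated from background. The count over all probes, 569 (74.7% higher in RAO-affected horses), was 262 with normexp (87.8% higher), 291 with the filter at 14 arrays and 1111 without slide 1. It was 386 to 1117 with 1 horse left out, the highest without RAO-affected horse 4 (62.8% higher). The cause was not tested. No paired analysis was possible because the control and RAO-affected horses share no replicate numbers and the pairs are not given in the sources used here.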
